A study of Mus musculus with 20 samples.

Results

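A CpG dyad is a CpG and its complement, so that it holds a cytosine on each strand of the double helix. The set described here comprises 263 autosomal pairs of adjacent positions read on both strands, taken from 5524 such pairs (4.76%), which were few beside the 153917 single positions read to the same depth. Each strand of a member had at least 10 reads in both sperm libraries and in all 8 libraries of paternal pronuclei, and at least 75% methylation in both sperm libraries. The members were thus chosen by sperm methylation and read depth, and the sperm values below are a description. The methylation of pronuclei played no part in the choice. The row at the first position of a pair was taken as the plus strand and the row at the next position as the minus strand, in mm9 coordinates.

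Methylation of CpGs is copied at replication. A newly made strand is unmethylated, a dyad is hemimethylated behind the fork, and DNMT1, recruited by UHRF1, methylates the new strand after the pattern of the parent strand. After fertilisation the paternal genome loses much of its methylation in the pronucleus, through dilution by replication and through oxidation of 5-methylcytosine by the dioxygenase TET3, which the oocyte supplies. Aphidicolin inhibits replicative DNA polymerases and so blocks DNA synthesis. Bisulfite sequencing reads the strands of a dyad in different molecules and does not separate 5-methylcytosine from 5-hydroxymethylcytosine. A strand value is thus an average over the molecules of a library, and no value below shows whether a single molecule was hemimethylated.

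The paternal pronuclei came from zygotes in 4 groups: CKO with aphidicolin, CKO mock, WT with aphidicolin and WT mock. The oocytes of CKO zygotes came from females that carried Zp3-Cre, which acts in growing oocytes, and a Tet3 genotype of f/-, whereas females of the WT zygotes were f/f. All females were 7 to 10 weeks old and were superovulated, and all zygotes were made in vitro with sperm of C57BL/6J males, so that the paternal chromosomes had a wild-type Tet3 gene in every group. Aphidicolin was given at 3 µg/ml from 5 h after fertilisation, and pronuclei were taken out by micromanipulation at 12 h and frozen at 13 h. A library was typically made by reduced representation bisulfite sequencing (RRBS), which reads fragments cut by MspI, from about 20 pronuclei with 21 PCR cycles. Each group had 2 libraries, as did sperm, oocytes and the 4 groups of maternal pronuclei.

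The 20 libraries held between 22431861 and 68056783 methylation calls. In replicates 1 and 2 the paternal files held 1135788 and 1211098 positions in CKO aphidicolin and 1661337 and 1608392 in CKO mock. They held 1113909 and 1048779 in WT aphidicolin and 1009368 and 1592209 in WT mock. The part of this difference in the strand differences was not tested. The files of mock pronuclei list the chromosomes in sorted order and those of aphidicolin pronuclei and gametes do not, so that treatment and a difference in file preparation cannot be told apart. The CKO label could not be checked against Tet3 itself, since methylation calls do not measure the deletion. Nothing in the labels ties replicate libraries to different animals, and the p-values below measure only the spread between these libraries, which may be technical. Counting intervals and limits cover counting error alone, because PCR copies were not counted apart. Median depth per strand at the members was lowest in WT aphidicolin replicate 1, with 26 reads on the plus and 25 on the minus strand.

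The members lay on all 19 autosomes, with 28 on chromosome 11 and 1 on chromosome 16. They formed 194 runs of members less than 100 bases apart, of which 156 held a single dyad and 38 held the other 107. The longest run had 11 members at chr11:3093431-3093487 and was read 958 times per strand on average, against a median of 68.9 and a lowest value of 32.8 over all members. In all, 239 members were isolated pairs and 24 lay in longer stretches of consecutive positions. Of these 24, 7 were the inner pair of such a stretch, in which the paired cytosines belong to neighbouring CpGs and not to a dyad. By position order the first row of an inner pair lies on the minus strand, so its plus and minus labels are reversed. All values and counts by strand below keep the labels as assigned. Most pairs outside the set were unmethylated in sperm: 5051 of the 5524 (91.4%) were at or below 25% on both strands in both sperm libraries, and 210 (3.80%) fitted neither description.

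Averaged over the 263 dyads, the strands of the paternal pronuclei carried nearly the same methylation. In CKO aphidicolin the plus strand averaged 91.2% and the minus strand 89.9% in replicate 1, and 95.7% and 95.2% in replicate 2. In CKO mock the plus and minus strands averaged 68.3% and 70.1%, then 71.7% and 73.0%. Neither strand was the higher one in both treatments, and the largest of these gaps was under 2 points. In WT aphidicolin the plus and minus strands averaged 93.2% and 91.7%, then 93.1% and 95.0%. In WT mock they averaged 60.01% and 60.2%, then 64.7% and 59.6%, the widest gap of all at 5.18 points. In sperm they averaged 95.4% and 95.1%, then 94.6% and 95.2%. The mean over both strands was therefore 93.0% ± 3.43 in CKO aphidicolin, 70.8% ± 2.25 in CKO mock, 93.3% ± 1.15 in WT aphidicolin and 61.1% ± 1.44 in WT mock (SD, n = 2 each), against 95.1% ± 0.254 in sperm (n = 2).

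The strands of single dyads lay apart, most of all in mock zygotes. Values of replicate 1 are given before those of replicate 2 throughout. The mean absolute strand difference was 13.6 and 5.47 points in CKO aphidicolin, against 26.1 and 28.2 points in CKO mock. It was 10.2 and 10.4 points in WT aphidicolin, against 33.9 and 25.8 points in WT mock. In sperm it was 3.31 and 3.20 points. Mock libraries of both genotypes thus stood above all 4 aphidicolin libraries, and all 8 stood above sperm, where the 75% limit keeps the strands within 25 points of each other. The median dyad differed by 0 points in every aphidicolin library, by 20.7 and 21.4 points in CKO mock, by 22.7 and 19.0 points in WT mock and by 2.55 and 2.33 points in sperm.

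**Figure D1:**
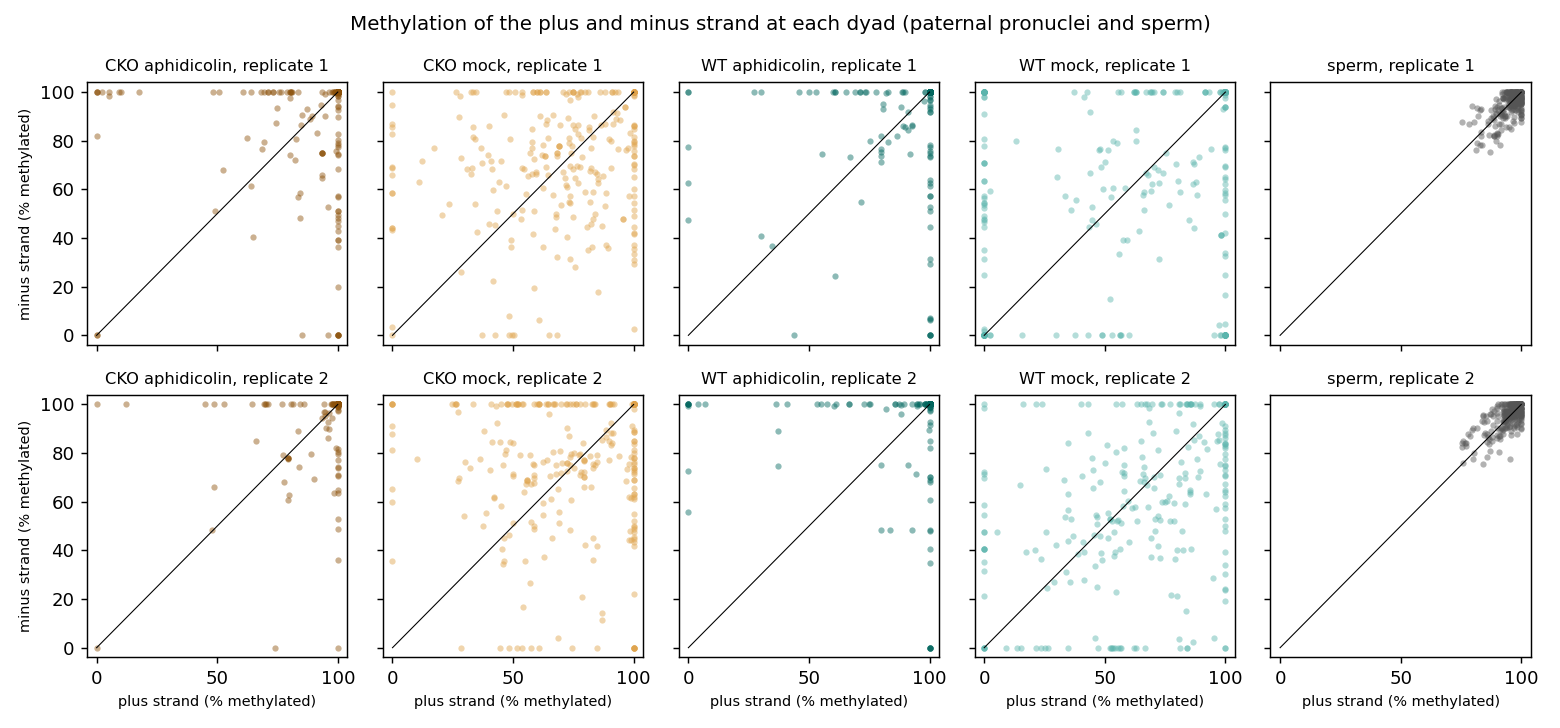
Methylation of the minus strand (vertical axis, percent) against the plus strand (horizontal axis, percent) for each of the 263 dyads, 1 panel per library. In the aphidicolin libraries the points crowd the upper right corner with arms along its edges, in the mock libraries they spread over the upper right area and along the edges, and in sperm they stay above 75% on both axes by the rule that chose them.

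The values of a dyad's strands were weakly related in pronuclei. Pearson's r between the strand values over the 263 dyads, which share a library and its depth, was 0.127 and 0.349 in CKO aphidicolin and 0.176 and -0.0112 in CKO mock. It was 0.211 and 0.0398 in WT aphidicolin and 0.246 and 0.375 in WT mock. In sperm, within the narrow range left by the rule, r was 0.635 and 0.685. Many of the strand values in pronuclei were exactly 0% or 100%, which was so for 74.5% and 81.0% of them in CKO aphidicolin, 23.4% and 32.1% in CKO mock, 80.0% and 84.8% in WT aphidicolin, and 58.2% and 28.1% in WT mock. WT mock replicate 1 stood apart from the other mock libraries in this respect. Sperm libraries had 23.2% and 23.6% such values. Median depth was 66 and 66 reads on the plus and minus strands in sperm replicate 1 and 67 and 63 in replicate 2, so depth was not matched to all pronuclear libraries, and its part was not tested.

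Dyads methylated on both strands were the usual state in aphidicolin zygotes and a minority in mock zygotes. At least 75% on both strands was found at 197 and 232 of the 263 dyads in CKO aphidicolin, at 69 and 78 in CKO mock, at 215 and 222 in WT aphidicolin and at 68 and 62 in WT mock. Dyads at or below 25% on both strands numbered 2 and 1 in CKO aphidicolin, 2 and 0 in CKO mock, 0 and 0 in WT aphidicolin, and 30 and 11 in WT mock. A split dyad, with 1 strand at 75% or more and the other at 25% or less, was found 18 and 3 times in CKO aphidicolin, 8 and 20 times in CKO mock, 10 and 13 times in WT aphidicolin, and 49 and 19 times in WT mock. The replicates of 3 of these groups differed from each other by more than 1.5 times in split dyads, and the count in WT mock rested on replicate 1.

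**Figure D2:**
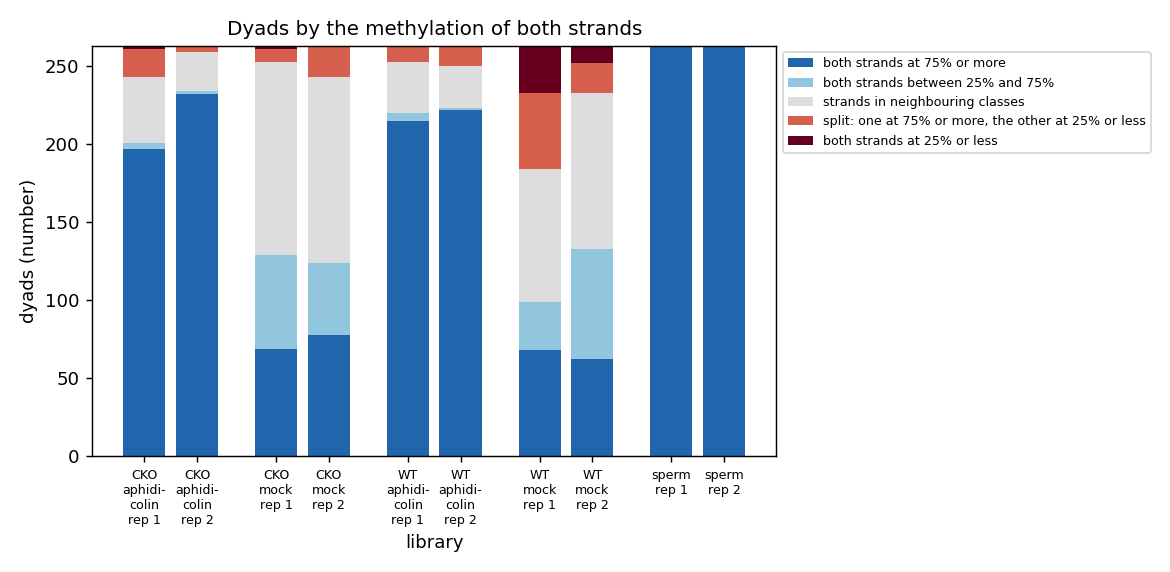
Number of the 263 dyads in each class (vertical axis) by library (horizontal axis): both strands at 75% or more, both between 25% and 75%, strands in neighbouring classes, split, and both at 25% or less. The class methylated on both strands holds 197 to 232 dyads in the aphidicolin libraries and 62 to 78 in the mock libraries.

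Strand differences of at least 50 points occurred at 27 and 8 dyads in CKO aphidicolin, 39 and 52 in CKO mock, 18 and 22 in WT aphidicolin, 76 and 44 in WT mock, and none in sperm. No strand was the higher one in every library, and the widest lead was that of the plus strand in WT mock replicate 2. The plus strand was the higher one at 55 dyads and the minus strand at 53 in CKO aphidicolin replicate 1, at 40 and 35 in replicate 2, at 118 and 125 in CKO mock replicate 1 and at 116 and 122 in replicate 2. In WT aphidicolin the plus strand was higher at 48 dyads and the minus strand at 37, then at 31 and 45. In WT mock the plus strand was higher at 96 and the minus strand at 97, then at 140 and 102. Split dyads in WT mock replicate 2 had the plus strand high at 14 and the minus strand high at 5, against 26 and 23 in replicate 1. The other dyads of each library had equal strands, which was the case for 155 and 188 in CKO aphidicolin, 20 and 25 in CKO mock, 178 and 187 in WT aphidicolin, and 70 and 21 in WT mock.

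Counting error was removed before libraries were compared, since a strand value from few reads differs from its partner by chance. It was computed from read counts and is nil where all reads of a strand agree, so the sampling of few DNA molecules was not removed. The root mean square strand difference beyond counting error was 29.2 and 15.9 points in CKO aphidicolin, 33.5 and 37.9 points in CKO mock, 24.5 and 26.6 points in WT aphidicolin, and 49.2 and 34.6 points in WT mock. In sperm it was 2.72 and 2.55 points, where counting error alone would give 3.49 and 3.59 points. In the 8 pronuclear libraries counting error would give 1.88 to 6.45 points, below the measured difference in each of them.

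Aphidicolin libraries had the smaller strand differences in both genotypes. The root mean square difference averaged 24.0 points over the 4 aphidicolin libraries and 38.8 points over the 4 mock libraries, a difference of -14.8 points (exact two-sided permutation test within genotype, p = 0.0556, adjusted p = 0.185 over 20 tests). The smallest p that this design allows is 0.0556, so no such test on the 8 libraries can pass 0.05. The difference was -13.2 points within CKO (library pairs from -22.0 to -4.35) and -16.3 points within WT (-24.7 to -8.00). The mean absolute difference was 9.90 points with aphidicolin and 28.5 points in mock, which differ by -18.6 points (exact p = 0.0556, adjusted p = 0.185). The share of split dyads was 4.18% with aphidicolin and 9.13% in mock (difference -4.94 points, exact p = 0.222, adjusted p = 0.444). That difference was -2.09 points without WT mock replicate 1 and -7.79 points without WT mock replicate 2, and ran from -11.9 points at limits of 60% and 40% to -2.38 points at limits of 90% and 10%. Mean methylation was 93.1% with aphidicolin and 66.0% in mock (difference 27.2 points, exact p = 0.0556, adjusted p = 0.185).

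The order of the treatments turned when the strand difference was set against the room left for it. A dyad at 95% cannot have strands more than 10 points apart, whereas a dyad at 50% can be fully split. Relative to the largest strand difference its levels allowed, the summed difference was 79.6% and 67.1% in CKO aphidicolin, 50.5% and 57.0% in CKO mock, 77.0% and 91.8% in WT aphidicolin, and 74.5% and 49.7% in WT mock. It averaged 78.9% with aphidicolin and 58.0% in mock, a difference of 20.9 points in the opposite direction (exact p = 0.0556, adjusted p = 0.185). Exactly 100% on both strands was found at 153 and 187 dyads in CKO aphidicolin, 18 and 25 in CKO mock, 178 and 187 in WT aphidicolin and 46 and 17 in WT mock, and such dyads add nothing to either sum. Strand values of exactly 0% or 100% made up 74.5% to 84.8% in the aphidicolin libraries and 23.4% to 58.2% in mock. Their part in the turned order was not tested. The relative measure was added after the values were seen and is not corrected for counting error, and sperm gave 34.9% and 31.4% by it.

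**Figure D3:**
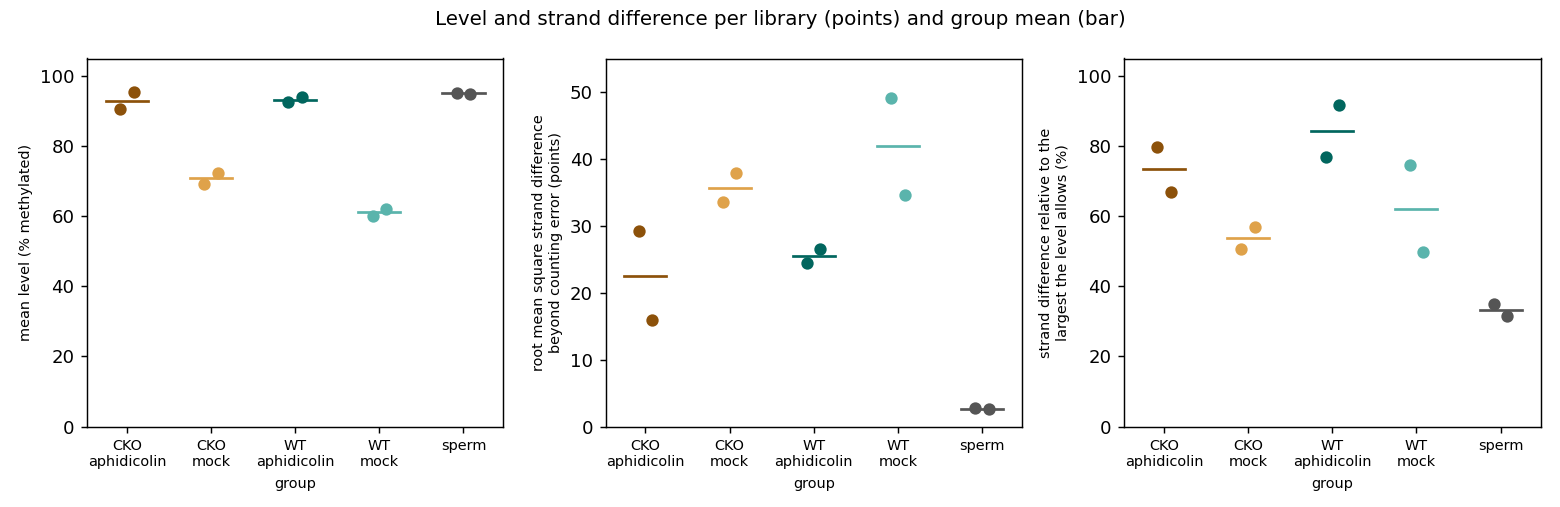
Mean methylation (left, percent), root mean square strand difference beyond counting error (middle, points) and strand difference relative to the largest the level allows (right, percent) over the 263 dyads, by group (horizontal axes), with a point per library and a bar at the group mean. The 4 aphidicolin libraries lie at 90.6% to 95.4% methylation with differences of 15.9 to 29.2 points, and the 4 mock libraries at 60.1% to 72.4% with 33.5 to 49.2 points, while in the right panel both aphidicolin means stand above both mock means.

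Counted dyad by dyad, the same order held at a large share of members. In CKO, 148 of 263 members (56.3%) had a smaller absolute strand difference in both aphidicolin libraries than in either mock library, and 14 had a larger one. Over all 5524 pairs these shares were 5.68% and 2.37%. In WT, 114 members (43.3%) had the smaller and 6 the larger difference with aphidicolin, where all pairs gave 3.57% and 2.59%. Pairs outside the set were mostly unmethylated and left little room for either. Methylation in CKO was higher in both aphidicolin libraries than in either mock library at 173 members (65.8%, against 5.30% of all pairs). It was lower at 4 (1.52%, against 3.37%). In WT it was higher at 163 members (62.0%, against 6.90% of all pairs) and lower at 0 (against 1.07%).

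No strand difference between the genotypes stood out from the spread of the libraries. The root mean square difference was 29.1 points in CKO and 33.7 points in WT over both treatments, a difference of -4.56 points (exact p = 0.444, adjusted p = 0.635). Library pairs differed by -10.7 to 4.70 points with aphidicolin and by -15.6 to 3.33 points in mock. The mean absolute difference was 18.3 points in CKO and 20.1 points in WT (difference -1.74 points, exact p = 0.556, adjusted p = 0.741), and it changed sign without WT mock replicate 1, at 0.273 points, and without CKO aphidicolin replicate 2, at 0.286 points. Split dyads made up 4.66% in CKO and 8.65% in WT (difference -3.99 points, exact p = 0.333, adjusted p = 0.556). Without WT mock replicate 1 the difference was -1.14 points and without WT mock replicate 2 it was -6.84 points.

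Methylation itself was higher in CKO than in WT among mock libraries. It averaged 70.8% in CKO mock and 61.1% in WT mock, and every library pair differed in this direction, by 7.02 to 12.2 points. With aphidicolin it averaged 93.0% in CKO and 93.3% in WT, with library pairs from -3.51 to 2.97 points. Over both treatments the difference was 4.68 points (exact p = 0.222, adjusted p = 0.444). Both CKO mock libraries exceeded both WT mock libraries at 72 members, against 7.02% of all pairs, and lay below at 29, against 1.59%. With aphidicolin these counts were 9 and 13 members (3.42% and 4.94%), against 1.81% of all pairs either way. The absolute strand difference was larger in both CKO mock libraries at 39 members (14.8%), against 4.80% of all pairs, and smaller at 49 (18.6%), against 2.35%. With aphidicolin it was larger in CKO at 11 members (4.18%, against 1.79% of all pairs) and smaller at 14 (5.32%, against 2.03%). Pairs outside the set were mostly unmethylated and left little room for a difference. The excess of members over all pairs, found in both directions, is therefore not read as a genotype effect.

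The dyads with the widest strand differences in WT mock had opposite patterns in its replicates or the same in both. At chr10:126981705-126981706 the plus strand had 0 of 32 methylated reads and the minus strand 55 of 55 in replicate 1, whereas replicate 2 had 54 of 54 on the plus strand and 0 of 48 on the minus strand. With 95% Wilson intervals these values reach at most 10.7% where 0 of 32 reads were methylated and at least 93.5% where 55 of 55 were. A second limit, 3 divided by the number of reads, gives 9.38% for 0 of 32. All 4 aphidicolin libraries read 100% on both strands there, and CKO mock read 75.0% and 68.3% on the plus and minus strands, then 100% and 73.8%.

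At chr2:32486536-32486537 the plus strand was the methylated one in both WT mock libraries, with 100% on the plus and 0% on the minus strand, then 84.1% and 0%. CKO mock had 95.6% and 47.8% in replicate 1 and 0% and 35.7% in replicate 2, while all aphidicolin libraries had 100% on both strands. At chr7:144403764-144403765 WT mock had 100% on the plus and 0% on the minus strand, then 21.5% and 100%. The strands of that dyad were closer in CKO mock, at 85.2% and 64.1%, then 100% and 85.1%, and 1 aphidicolin library, CKO replicate 2, had 100% and 52.9%. These 3 dyads were the widest in WT mock among members whose difference there exceeded both WT aphidicolin libraries.

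The 3 widest in CKO mock, chosen in the same way, all had opposite directions in the replicates. At chr4:119768014-119768015 CKO mock had 100% on the plus and 35.6% on the minus strand, then 0% and 100%. At chr6:91910507-91910508 it had 88.6% and 37.2%, then 0% and 100%, and at chr13:59266279-59266280 it had 0% and 82.6%, then 60.7% and 0%. Both CKO aphidicolin libraries had 100% on both strands at all 3. In WT mock none of the 3 had such a gap: chr4:119768014-119768015 had 100% on both strands in replicate 1 and 56.8% and 51.3% in replicate 2, chr6:91910507-91910508 had 0% on both strands in both, and chr13:59266279-59266280 had 100% on both strands in replicate 1 and 0% on both in replicate 2.

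Which strand was the methylated one was not shared between replicates over the set as a whole. A strand difference of at least 25 points in both libraries was found at 59 dyads in CKO mock, of which 33 had the same direction and 26 the opposite. In WT mock 55 dyads met this, 31 with the same and 24 with the opposite direction. In aphidicolin zygotes 5 dyads did so in CKO (3 and 2) and 9 in WT (5 and 4). At 50 points, CKO mock had 5 dyads of the same and 5 of the opposite direction, and WT mock had 10 and 9. The directions were thus nearly evenly divided in both mock groups.

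**Figure D4:**
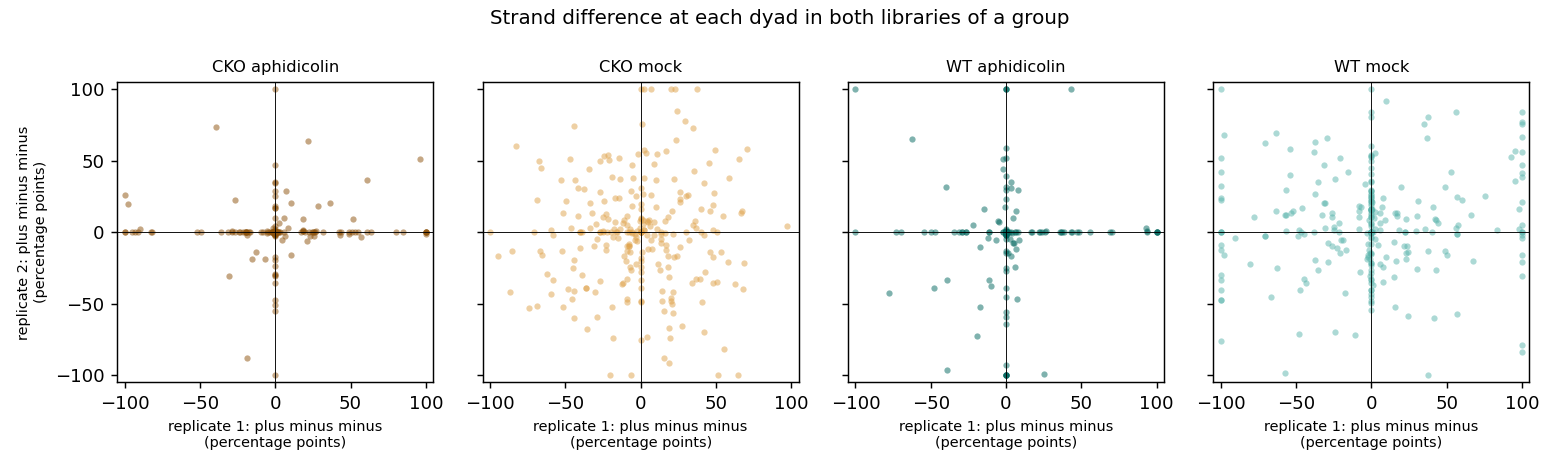
Strand difference (plus strand minus minus strand, points) of each dyad in replicate 2 (vertical axis) against replicate 1 (horizontal axis), 1 panel per group. Mock dyads fill all 4 quadrants, with 33 of 59 in CKO and 31 of 55 in WT on the same side among those at 25 points or more in both replicates.

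A test of each pair for a strand that was higher across the 8 libraries found few members. A quasi-binomial model with a level per library tested 887 pairs with intermediate methylation. Libraries in which all calls at a pair were alike did not enter its fit. In all, 66 pairs (7.44%) passed both an adjusted p of 0.05 and a mean strand difference of 10 points. Of these, 37 were toward the plus strand (4.17%) and 29 toward the minus strand (3.27%). Of the 263 members 243 could be tested and 24 had an unadjusted p under 0.05, against 162 of all 887 pairs. Of the 243, 6 were called, 4 labelled toward the plus strand, among them an inner pair with reversed labels, and 2 toward the minus strand. This is a smaller share than that of all pairs tested. No member was called by limma on percentage points, where 13 had an unadjusted p under 0.05 (all pairs: 27 called and 89 at that p, of 1045). None was called by limma on arcsine square roots, with 12 at that p (all pairs: 34 and 95 of 1045). At 20 reads per strand the model called 0 of 84 members, with 8 at that p (all pairs: 33 and 94 of 383). The calls at members thus rest on the model chosen. The median dispersion of the members was 25.6 times that of independent reads, so that read depth overstates their precision.

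None of the 6 had the same sign in all 8 libraries, where a library with equal strands has no sign. Only chr7:144440843-144440844 had libraries of opposite signs, with 4 toward the plus and 3 toward the minus strand. The 6 are named here after their values were seen. At chr11:103166580-103166581 all 4 aphidicolin libraries had 100% on both strands, whereas the plus and minus strands had 37.3% and 0%, then 100% and 0%, in CKO mock and 97.1% and 4.35%, then 52.5% and 0%, in WT mock (adjusted p = 0.0133, quasi-binomial F test with limma shrinkage). The plus strand was thus the higher one in 4 of 4 mock libraries. At chr11:6604571-6604572 the plus strand had 100% in all 8 libraries, and the minus strand had 100% and 100% in CKO aphidicolin, 81.6% and 89.3% in CKO mock, 73.3% and 98.9% in WT aphidicolin, and 57.5% and 91.0% in WT mock (adjusted p = 0.00305). The gap there was thus not limited to mock libraries. At chr7:144440843-144440844 the wide gaps were in CKO, where the plus and minus strands had 96.1% and 0%, then 100% and 48.6%, with aphidicolin and 83.2% and 47.9%, then 84.7% and 41.8%, in mock. WT mock there had 44.8% and 47.5%, then 21.2% and 40.2%, and the adjusted p of the strand effect was 5.46e-05. The dispersion before shrinkage was 33.0 at chr7:144440843-144440844, 0.769 at chr11:103166580-103166581 and 6.14e-05 at chr11:6604571-6604572, against a median of 25.6 over the members. With the floor of the dispersion set before shrinkage, 3 members were called, against 52 of all 887 pairs.

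The other 3 show how close positions share their reads. The members at chr10:80103166-80103167 and chr10:80103167-80103168 overlap by a base, and the shared position 80103167 was on average the higher one in both (adjusted p = 0.00571 and 0.000227). The second is an inner pair with reversed labels, so that both calls name the same strand and are 1 observation and not 2. Their dispersion before shrinkage was 6.73e-05 and 6.76e-05, against a median of 25.6 over the members. The member at chr10:126981717-126981718 lies in the run of chr10:126981705-126981706 and was higher on the minus strand in WT mock, with 0% on the plus and 100% on the minus strand, then 24.1% and 100% (adjusted p = 0.0317). Both of these dyads had 54 and 48 reads on the plus and minus strands in WT mock replicate 2, yet the minus strand read 100% at chr10:126981717-126981718 and 0% at chr10:126981705-126981706. Only 3 libraries held both methylated and unmethylated calls at chr10:126981717-126981718, where the dispersion before shrinkage was 8.8e-05.

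Libraries with equal strands, frequent with aphidicolin, have no sign. Counted so, no member had a sign shared by all 8 libraries on the plus side, and 1 had it on the minus side. This was chr11:3093486-3093487 in the deepest run, with on average 1236 reads per strand. The plus and minus strands had 89.4% and 89.96%, then 93.6% and 94.5%, in CKO aphidicolin, and 81.6% and 85.5%, then 88.6% and 89.5%, in CKO mock. They had 80.7% and 92.9%, then 96.1% and 100%, in WT aphidicolin, and 58.2% and 60.6%, then 66.4% and 74.4%, in WT mock. Its mean difference was -4.09 points and its adjusted p 0.210, above the threshold, and in sperm the plus strand was the higher one.

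Whether the strand effect of a dyad differed between treatments or genotypes was tested with an added term in the same model. Between aphidicolin and mock, 1 of 803 pairs was called (0.125%) and 0 of the 172 members that could be tested, with 14 of them at an unadjusted p under 0.05. Members at 100% on both strands in every aphidicolin library could not be tested, since libraries with all calls alike did not enter the fit. Some of these had wide strand gaps in mock. At chr11:103166580-103166581 the mean strand difference with aphidicolin minus that in mock was -70.6 points, while at other untested members it was small. The count of 0 does not cover such members. Between CKO and WT, 1 of 869 pairs was called (0.115%) and 0 of 243 members. At an unadjusted p under 0.05 were 28 of these members and 80 of all pairs. limma on percentage points, which tested 247 members, also called 0 members in both comparisons, with 23 and 5 at an unadjusted p under 0.05 (all pairs: 58 and 28 of 1045).

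In mock zygotes neighbouring dyads were closer on the same strand than the strands of a dyad were to each other. Taken as consecutive members at most 50 bases apart, neighbours formed 55 pairs of 91 members. Members that overlap by a base were not paired with each other. On the same strand of the same library, the values of such neighbours differed on average by 10.4 and 4.95 points in CKO aphidicolin, 9.56 and 9.25 points in CKO mock, 9.26 and 8.52 points in WT aphidicolin, and 13.4 and 13.9 points in WT mock. The strands of those same 91 dyads differed by 15.0 and 5.39 points in CKO aphidicolin, 20.9 and 26.9 points in CKO mock, 9.11 and 10.7 points in WT aphidicolin, and 40.6 and 25.7 points in WT mock. The difference across strands was thus the larger one in all 4 mock libraries, by over 10 points in each, whereas with aphidicolin it was within 5 points of that between neighbours and in WT replicate 1 the smaller one. Neighbours so close can be read by the same fragments, so they are not independent.

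The direction of a strand difference carried over to the neighbour. Where both dyads of a neighbouring pair differed by at least 25 points, they did so in the same direction in 8 of 10 and 15 of 16 cases in CKO mock and in 17 of 19 and 8 of 8 in WT mock. CKO aphidicolin had 4 of 4 such cases in replicate 1 and none in replicate 2, and WT aphidicolin 1 of 1 and 1 of 2.

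Across the libraries of a group it made little difference which strands were compared. The same strand of the same dyad differed between the 2 libraries of a group by 10.6 points in CKO aphidicolin, 25.4 points in CKO mock, 11.1 points in WT aphidicolin, 32.4 points in WT mock and 3.04 points in sperm. The opposite strands of the 2 libraries differed by 11 points in CKO aphidicolin, 26.01 points in CKO mock, 11 points in WT aphidicolin, 34.4 points in WT mock and 3.32 points in sperm. In every group these distances lay within 2 points of those on the same strand.

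**Figure D5:**
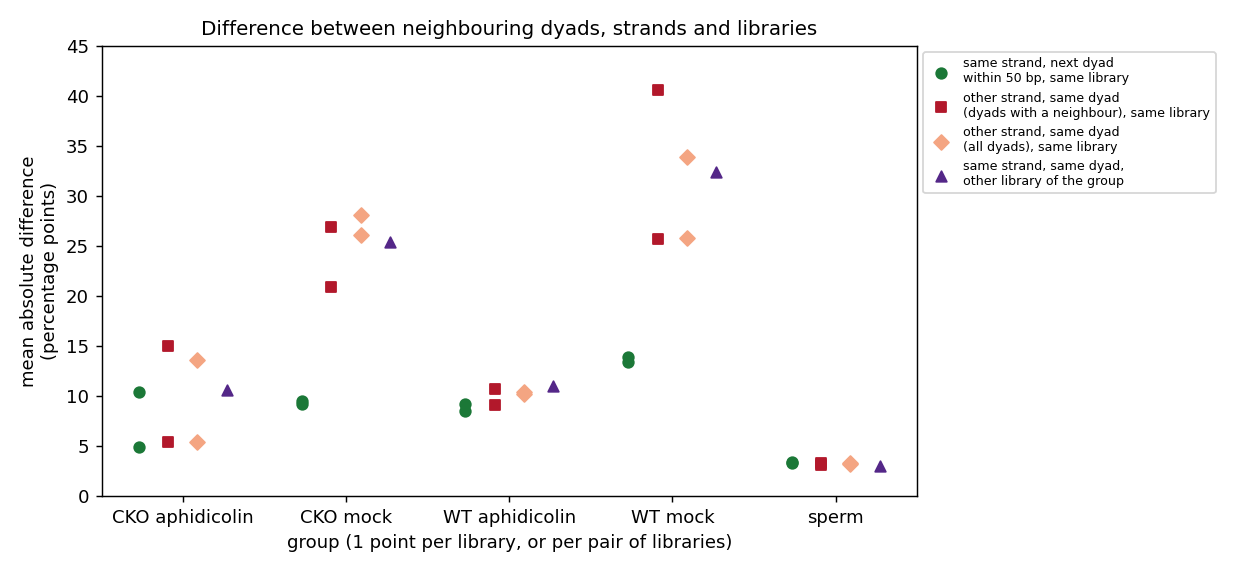
Mean absolute difference in methylation (vertical axis, points) by group (horizontal axis) for the same strand of the next dyad within 50 bases, the other strand of the same dyad (the 91 dyads with a neighbour, and all 263), and the same strand of the same dyad in the other library, with 1 point per library or pair of libraries. In the mock groups the neighbour on the same strand lies at 9.25 to 13.9 points and every other comparison above 20 points.

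The members varied widely in how much methylation they kept. In WT mock the mean over both strands and replicates ran from 0% to 100% with a median of 64.2%, and in CKO mock from 25% to 100% with a median of 72.0%. The medians were 99.7% in CKO aphidicolin, 100% in WT aphidicolin and 96.8% in sperm. There were 7 members at 100% in both WT mock libraries. The deepest of these was chr19:7168100-7168101, which had 100% on all strands in WT aphidicolin, and 80.2% as its lowest value in CKO mock. The second, chr8:125955359-125955360, had 100% on both strands in all 8 paternal libraries. The third, chr4:134728648-134728649, had 100% on both strands, then 64.4% and 100%, on the plus and minus strands in CKO aphidicolin, and 100% and 51.4%, then 100% and 72.4%, in CKO mock. In WT aphidicolin it had 45.8% and 100%, then 100% on both strands, so that its strands were closest in WT mock.

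The lowest member in WT mock was chr6:91910507-91910508, at 0% on both strands in both libraries and at 60.7% and 24.2%, then 100% and 100%, in WT aphidicolin. Next was chr19:56591132-56591133, with 0% and 0%, then 13.6% and 0%, on the plus and minus strands in WT mock and 100% on both strands in all 4 aphidicolin libraries. In CKO mock it had 0% and 43.9%, then 36.3% and 77.5%. The third, chr2:167607325-167607326, had 0% on both strands in CKO aphidicolin replicate 1 and 100% on both strands in replicate 2, and in WT mock 0% and 0%, then 23.5% and 0%. The aphidicolin replicates of this dyad in CKO were thus as far apart as values can be, while its strands were equal in each.

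The members fell in several classes by their methylation in oocytes, which the rule did not use. Of those read at least 10 times per strand in both oocyte libraries, 91 were also methylated there, 73 were unmethylated and 68 were intermediate. WT mock methylation was 57.5% ± 4.09 at the members methylated in oocytes and 62.6% ± 2.38 at those unmethylated in oocytes (SD, n = 2 each), and CKO mock methylation was 74.0% ± 2.85 and 68.2% ± 9.88. The mean absolute strand difference in WT mock was 32.9 ± 8.88 points at members methylated in oocytes and 26.9 ± 2.33 points at those unmethylated there, and in CKO mock it was 25.5 ± 4.78 and 29.6 ± 2.54 points. With aphidicolin it was 8.67 ± 5.66 points in CKO and 10.8 ± 1.13 points in WT at members methylated in oocytes, and 13.8 ± 12.2 points in CKO and 11.6 ± 3.96 points in WT at those unmethylated in oocytes. The classes were not tested against each other, and their order differed between CKO mock and WT mock in both measures.

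Only 56 members were also read on both strands in the oocyte and maternal pronuclear libraries, so the parents were compared over these. There the root mean square strand difference averaged 21.2 points with aphidicolin and 20.7 points in mock over the 16 pronuclear libraries (difference 0.552 points, exact p = 0.818, adjusted p = 0.962). The groups behind this average differed in direction. In WT paternal pronuclei it was 16.5 points with aphidicolin and 26.95 points in mock, in WT maternal pronuclei 24.8 points with aphidicolin and 15.9 points in mock, and in CKO maternal pronuclei 22.2 and 17.2 points. In CKO paternal pronuclei it was 21.4 points with aphidicolin and 22.5 points in mock.

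Over these 56 dyads methylation was higher with aphidicolin, at 73.6% with aphidicolin and 63.1% in mock (difference 10.5 points, exact p = 0.00154, adjusted p = 0.0154, the smallest p this design allows). The difference was 14.7 points in CKO and 18.6 points in WT paternal pronuclei, against 2.72 and 5.90 points in CKO and WT maternal pronuclei. The strand difference relative to the room left for it was also higher with aphidicolin, at 50.8% with aphidicolin and 32.8% in mock (difference 18.01 points, exact p = 0.00154, adjusted p = 0.0154). Strand values of exactly 0% or 100%, which raise this measure, made up 44.6% to 61.6% with aphidicolin and 11.6% to 33.0% in mock. Their part was not tested. The tests over both parents take paternal and maternal libraries as independent units, and whether these shared zygotes was not checked. Between CKO and WT the root mean square difference was 20.8 points in CKO and 21.0 points in WT (difference -0.177 points, exact p = 0.912, adjusted p = 1). The 56 dyads are not a sample of the 263, since their mean absolute difference in WT mock was 18.9 points in both paternal libraries, below that of the whole set. They were also read more deeply. In sperm replicate 1 their median depth was 168 reads on the plus and 117 on the minus strand, against 66 and 66 over all 263.

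The 75% limit in sperm cut through a continuous range. The members nearest to it were chr10:79873283-79873284 and chr13:120277159-120277160, whose lowest sperm strand value was 75.3% each. The nearest pairs outside were chr13:120277149-120277150, with a lowest value of 74.1%, and chr7:111952871-111952872, with 72.4%. The last of these had wide strand gaps as well, with 66.1% on the plus and 0% on the minus strand in CKO mock replicate 1.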

How the data were processed

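Methylation was measured by RRBS in 20 libraries. Bismark 0.10.1, Trim Galore and the mm9 build are named in the submitters' processing notes. The deposited files give the count of methylated and of unmethylated reads per position, with no normalisation, and the percent that the authors computed from these counts. Whether duplicates were removed or reads filtered is not given in the sources used here. Libraries were grouped and numbered by their labels, and the numbers did not pair libraries.

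Percentages per strand were recomputed from the counts of rows at positions s and s + 1, with at least 10 reads per strand, in Python 3.11.15 with NumPy 2.4.6 and pandas 2.3.3. The strand difference beyond counting error is the root of the mean squared difference less the binomial variance of both strands. Library values were tested by exact two-sided permutation within strata, with Benjamini-Hochberg adjustment over 20 tests, 4 of which, on the relative difference, were added after seeing the data. Pairs with mean methylation of 5% to 95% were fitted with a quasi-binomial logistic model in R 4.3.3, its dispersion shrunk with limma 3.58.1 squeezeVar and floored at 1. The model and the permutation test were tested on simulated data with known shifts. Of 845 simulated pairs without a shift the model called 16, and 72 had an unadjusted p under 0.05, so its calls include false ones. It called 45 of 100 pairs at a shift of 1.5 in log odds and 75 of 100 at 3. In the same data limma on percentage points called 1, 17 and 26. The members, dyad classes and rules were chosen with earlier results of these data known. Dyads were named by position: those called with 1 sign in all 8 paternal libraries or, failing that, of 1 sign in all 8; the 3 widest in mock of each genotype among those whose mock libraries both exceeded both aphidicolin libraries; the 3 highest and 3 lowest in WT mock; and 1 per run. Gene annotation and sequence of mm9 were not used here.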

Additional observations from a re-analysis of the deposited data

Results flagged for a closer look

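Over the 56 dyads read on both strands in all 20 libraries, the effect of aphidicolin on the root mean square strand difference had opposite signs in the parental genomes of WT zygotes. It was -10.5 points in paternal pronuclei, with library pairs from -13.0 to -7.98 points, and 8.84 points in maternal pronuclei, with library pairs from 5.54 to 12.1 points. The effects differ by -19.3 points (permutation of labels within the contrast, exact p = 0.0556, the smallest that 36 arrangements allow). The relative strand difference over the same dyads did not part in this way: aphidicolin minus mock was 19.9 points in WT paternal and 19.2 points in WT maternal pronuclei. At the members methylated in oocytes, whose number differs between libraries, the root mean square difference in WT maternal pronuclei was 18.7 and 18.4 points with aphidicolin and 31.6 and 19.4 points in mock. In CKO zygotes the same root mean square difference between the parents was -6.07 points (exact p = 0.222). Mean methylation of these dyads in WT was 91.8% with aphidicolin and 73.2% in mock in paternal pronuclei, and 55.2% with aphidicolin and 49.3% in mock in maternal pronuclei; its part in the result was not tested.

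Over the same 56 dyads the difference between CKO and WT paternal pronuclei was 4.95 points with aphidicolin, with library pairs from 0.814 to 9.09, and -4.45 points in mock, with library pairs from -7.37 to -1.52. These differ by 9.40 points (exact p = 0.0556, again the smallest possible). Over all 263 dyads the corresponding difference was 3.16 points (exact p = 0.667). The tests behind both are 2 of several such differences compared, with no adjustment.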

How the results depend on the processing

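In paternal pronuclei the root mean square strand difference was lower with aphidicolin under all alternatives run but 1. It ranged from -18.4 to -11.1 points when 1 library was left out, and turned to 20.9 when set relative to the largest difference the levels allow. Its exact permutation p ran from 0.0556 to 0.167 over the 8 other settings of this measure, among them 0.125 under a replicate block. For CKO against WT it ranged from -8.21 to -0.916 points without 1 library, and the mean absolute difference from -3.77 to 0.286.

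In pronuclei of both parents the direction depended on the measure. For aphidicolin the root mean square value was -2.37 at 5 reads per strand, -0.302 at 20 reads and -2.53 at a sperm limit of 90%. It was -2.72 as a mean absolute difference, 18.01 as a relative difference, and -0.314 to 1.42 without 1 library. These 2 other measures kept their own signs in every setting run: the mean absolute difference ran from -6.60 to -1.62 (unadjusted exact p from 0.0170 to 0.296) and from -3.41 to -2.04 without 1 library, and the relative difference from 12.5 to 29.6 and from 14.8 to 21.2. The split share was -0.160 at 5 reads and -0.893 at limits of 60% and 40%. For CKO against WT the root mean square value was 0.910 at 5 reads, 1.04 at 90% and 0.622 with 1 dyad per run, and -1.04 to 0.690 without 1 library. The mean absolute difference was 0.995, 0.985 and 0.589 under these 3 settings, 0.0775 for isolated pairs and 0.513 when thinned to 10 calls, and -0.720 to 0.649 without 1 library. The split share was 0.446 at 60% and 40% and 0.223 at 90% and 10%. The relative difference for CKO against WT stayed negative, from -8.68 to -1.14 and, without 1 library, from -6.85 to -0.468. The cause was not tested.

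The 6 members called for a strand effect became 0 at 20 reads, where 84 members were tested, 3 with the floor before shrinkage, 0 with limma on points or on arcsine square roots, 3 for isolated pairs, and 5 to 9 without 1 library. Of all pairs, 33 of 383 were called at 20 reads, 52 of 887 with that floor and 49 of 734 for isolated pairs. By limma 27 and 34 of 1045 pairs were called, and without 1 library 56 to 72 pairs. With the replicate block 2 members were called for aphidicolin by strand and 1 for CKO by strand, where all pairs gave 7 of 701 and 5 of 748. Without either WT aphidicolin library 1 member was called for aphidicolin by strand (all pairs: 5 of 722 and 3 of 754). The range for members without 1 library was thus 0 to 1. Correlations of same-numbered libraries' deviations ran from -0.0660 to 0.188 for methylation, so the numbers were not taken as pairs.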

Other observations

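In maternal pronuclei the members are a different mixture, since many are unmethylated in oocytes. Over the members read on both strands there, Pearson's r between the strands was 0.856 and 0.850 in CKO aphidicolin (185 and 166 dyads), 0.840 and 0.786 in CKO mock (256 and 240 dyads), 0.874 and 0.860 in WT aphidicolin (163 and 173 dyads), and 0.817 and 0.920 in WT mock (238 and 251 dyads). In oocytes it was 0.957 and 0.954 (244 and 249 dyads). These values cover dyads at both ends of the scale and so are not comparable with those of paternal pronuclei.

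At the members methylated in oocytes, maternal methylation was 94.0% and 95.9% in CKO aphidicolin, 85.6% and 86.2% in CKO mock, 95.2% and 96.0% in WT aphidicolin, and 79.0% and 87.5% in WT mock. Their mean absolute strand difference was 5.38 and 4.26 points in CKO aphidicolin, against 18.5 and 18.6 points in CKO mock. It was 6.03 and 6.96 points in WT aphidicolin, against 22.1 and 13.2 points in WT mock. Over these dyads the maternal mock libraries thus stood above the maternal aphidicolin libraries, as the paternal ones did, although the numbers of dyads differ between libraries.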
